A study of Mus musculus with 30 samples.

Results

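Transcripts of 10 genes that mark T cells were followed in 5 tissues of adult C57BL/6 mice carrying 2 copies or 1 functional copy of Ctcf. The genes are Cd3d, Cd3e, Cd3g, Cd4, Cd8a, Cd8b1, Lck, Zap70, Cd28 and Foxp3, and each matched exactly 1 of the 48709 genes in the count tables by its symbol. The genes were grouped by what they do in T cells, and no measured value entered the rule, although earlier results of these data were known when the set was chosen. The tissues were brain, kidney, liver, muscle (quadriceps femoris) and spleen, sequenced as 3 libraries from wild-type (WT) mice and 3 from Ctcf heterozygous mice (Ctcf+/-) in each tissue, which makes 30 libraries in 10 groups. Ctcf codes for a DNA-binding protein with zinc fingers that shapes chromatin loops. The labels give Ctcf haploinsufficiency as the genotype of the heterozygous samples in each of the 5 tissues and name no Cre or cell type that limits it. The series was set up to study intron retention under reduced Ctcf dosage. The values used here count fragments over exons.

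A T cell recognises antigen through the T cell receptor (TCR), whose antigen-binding chains sit in the membrane together with the CD3 chains encoded by Cd3d, Cd3e and Cd3g. The coreceptors CD4 and CD8 bind MHC molecules on the other cell and bring the kinase Lck to the receptor. Lck phosphorylates the CD3 chains, which then recruit the kinase ZAP-70. CD28 supplies the costimulatory signal, and Foxp3 is the transcription factor that defines regulatory T cells. The spleen is a large store of mature T cells, with B cells as its other main lymphocyte, whereas the other tissues hold T cells in small numbers.

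The CD3 genes lie side by side on chromosome 9. Cd3g (chr9:44969572-44980431, minus strand) and Cd3d (chr9:44981793-44987052, plus strand) are transcribed away from each other from starts 1362 bases apart, and Cd3e (chr9:44998743-45009590, minus strand) follows 11690 bases beyond Cd3d. Cd8b1 (chr6:71322788-71337494) and Cd8a (chr6:71373427-71379173), both on the plus strand, are also neighbours, with 35932 bases between them. Cd4 is at chr6:124864692-124888221 and Lck at chr4:129548344-129573641, both on the minus strand. Zap70 (chr1:36761798-36782818), Cd28 (chr1:60716800-60773359) and Foxp3 (chrX:7579676-7595243) are on the plus strand. These are the gene limits in the deposited tables on GRCm38. For Foxp3, 30.8% of the exonic bases overlap Ccdc22, Flicr or Gm36995, and fragments were counted without regard to strand, so its counts are uncertain.

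RefSeq promoter windows on GRCm38.p6 reach from 250 bases before to 50 bases after a transcription start, and 11 windows belonged to 7 of the 10 genes. The windows of the CD3 cluster are shown because these 3 genes varied together across the spleen libraries below. Both Lck windows are shown because Lck had the largest fold change among the members tested in muscle when that tissue was fitted alone. The first lies farther upstream and is the distal promoter, known for its use in mature T cells, and the other is the proximal promoter, known for its use in thymocytes. Capitals mark the ETS core AGGAAG and the RUNX core TGTGGT, searched on both strands, so that they also appear as CTTCCT and ACCACA.
Cd3g, minus strand, chr9:44980382-44980681: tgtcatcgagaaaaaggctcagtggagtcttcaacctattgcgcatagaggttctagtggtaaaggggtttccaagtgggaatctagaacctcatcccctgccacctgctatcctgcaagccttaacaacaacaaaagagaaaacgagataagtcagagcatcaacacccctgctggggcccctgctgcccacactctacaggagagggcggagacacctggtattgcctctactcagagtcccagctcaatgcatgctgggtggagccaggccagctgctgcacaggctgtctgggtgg
Cd3d, plus strand, chr9:44981536-44981835: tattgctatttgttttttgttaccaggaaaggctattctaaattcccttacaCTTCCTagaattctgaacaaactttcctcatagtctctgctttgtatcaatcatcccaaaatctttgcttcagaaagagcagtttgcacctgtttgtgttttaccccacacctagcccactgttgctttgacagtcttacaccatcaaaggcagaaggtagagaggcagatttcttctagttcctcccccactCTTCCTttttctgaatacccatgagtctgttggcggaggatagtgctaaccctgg
Cd3e, minus strand, chr9:45009562-45009861: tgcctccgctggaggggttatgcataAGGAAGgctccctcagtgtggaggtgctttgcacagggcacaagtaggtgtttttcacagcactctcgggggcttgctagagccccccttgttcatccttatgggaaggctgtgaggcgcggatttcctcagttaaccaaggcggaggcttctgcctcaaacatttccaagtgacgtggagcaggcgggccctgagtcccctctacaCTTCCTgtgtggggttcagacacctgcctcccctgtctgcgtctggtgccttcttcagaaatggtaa
Lck distal, minus strand, chr4:129573592-129573891: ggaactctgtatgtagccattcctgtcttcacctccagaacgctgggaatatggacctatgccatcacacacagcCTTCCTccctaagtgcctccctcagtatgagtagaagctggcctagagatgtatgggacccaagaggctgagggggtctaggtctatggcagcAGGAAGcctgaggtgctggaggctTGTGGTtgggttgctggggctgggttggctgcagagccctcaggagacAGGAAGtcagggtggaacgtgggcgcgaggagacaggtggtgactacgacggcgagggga
Lck proximal, minus strand, chr4:129558323-129558622: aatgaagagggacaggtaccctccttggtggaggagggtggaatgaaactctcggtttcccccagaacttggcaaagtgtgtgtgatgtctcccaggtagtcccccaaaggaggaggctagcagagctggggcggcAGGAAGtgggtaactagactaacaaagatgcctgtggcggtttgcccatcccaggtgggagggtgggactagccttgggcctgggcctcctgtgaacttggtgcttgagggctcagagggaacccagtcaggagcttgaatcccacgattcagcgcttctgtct
The ETS core occurred in 7 of the 11 windows of the T cell genes and in 35.4% of all 32851 windows of the same length. Cd3d and Cd3e held 2 ETS cores each, and 1 of them lay close to the start in both genes, beginning at position -5 in Cd3d and -17 in Cd3e. The distal Lck window held 3 ETS cores and a RUNX core, and the proximal window held 1 ETS core. The Cd3g window held neither. The RUNX core was in 2 of the 11 windows against 16.8% of all windows. The Cd3d window was the poorest in G and C of the 5 shown, at 42.3%, against a median of 52.7% over all windows, and it held 1 CpG.

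Libraries held 49.8 M to 131.6 M counted fragments, so that 3 counts, the upper limit that a count of 0 allows, correspond to 0.0228 to 0.0602 CPM, the count scaled to a library of 1 M fragments. Ctcf itself was at 61.4% to 67.2% of its WT mean in the 5 tissues, and no heterozygous library reached the lowest WT library of its tissue. In spleen, WT replicate 1 and heterozygous replicate 2 stood apart from the other 4 libraries. Genes of at least 5421 exonic bases, relative to genes of at most 1647, were lower in these libraries than the mean of the 6, with log2 differences of -0.32 and -0.38, against 0.08 to 0.22 in the others. Levels below are CPM scaled by TMM (trimmed mean of M values) within each tissue, and CPM per kilobase where genes are compared with each other. In whole tissue, fewer T cells and less RNA per T cell cannot be told apart.

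In spleen, transcripts of all 10 genes were abundant. Per kilobase of exon in WT spleen the order was Cd3g (135 CPM per kilobase), Cd3d (110), Lck (96.5), Cd3e (81.4), Cd8b1 (78.0), Cd8a (40.8), Cd4 (28.1), Zap70 (26.5), Cd28 (7.69) and Foxp3 (2.64). Cd4 and Zap70 changed places in heterozygous spleen, at 29.6 and 30.3 CPM per kilobase, and Lck (110) and Cd3d (117) came closer together. The B cell gene list, 9 genes that include Cd79a and Ms4a1, summed to 4517 to 6395 CPM over the 6 libraries, and the T cell genes summed to 1100 to 1643 CPM. The 10 T cell genes thus summed to less than the 9 B cell genes. Such sums depend on which genes are listed and on their lengths.

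No T cell gene was called between the genotypes in spleen. By edgeR's quasi-likelihood test 0 of the 10 genes were called at an adjusted p under 0.05, against 0.242% of all 18615 genes tested, and DESeq2 and limma-voom called 0 as well. At an unadjusted p under 0.05 the count was also 0 of 10 in these 3 fits, against 3.52% of all genes in the edgeR fit. The fitted log2 fold changes of heterozygous over WT were all above 0, between 0.07 for Cd4 and 0.39 for Foxp3, with a median of 0.20. Over all genes tested, 48.9% were above 0 and the median was -0.0044. Since transcripts of 1 cell type vary together, the 10 values are not 10 separate observations. The edgeR test did not call Ctcf itself in spleen either, with a log2 fold change of -0.62 (SE 0.19) and an adjusted p of 0.914. It called Ctcf in brain (adjusted p = 0.0259) and not in kidney (0.107), liver (0.543) or muscle (0.2497). Outside the brain, 0 calls by this test therefore do not exclude changes as large as that of Ctcf. The call of Ctcf in brain, at a WT mean of 68.7 CPM, does not settle this for members with far fewer counts there. Cd28 and Foxp3 had 3 to 24 counts per brain library.

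Among the CD3 chains, Cd3d was at 198, 112 and 128 CPM in the WT spleens of replicates 1, 2 and 3, and at 134, 224 and 108 CPM in the heterozygous ones. Cd3g ran in parallel, with 188, 120 and 126 CPM in WT and 143, 208 and 118 CPM in heterozygous spleen. Cd3e had the narrowest spread of these genes, with 139, 106 and 106 CPM in WT and 126, 167 and 110 CPM in heterozygous spleen. In all 3 genes the highest value was heterozygous replicate 2 and the next WT replicate 1, which are the libraries in which long genes were low, and the genotypes overlapped. Their log2 fold changes were 0.09 (SE 0.33) for Cd3d, 0.11 (SE 0.27) for Cd3g and 0.20 (SE 0.21) for Cd3e, each with an edgeR adjusted p of 1. Without heterozygous replicate 2 the values for Cd3d and Cd3g were -0.28 and -0.16.

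Cd8a was the member whose genotypes did not overlap in spleen. It encodes the CD8 alpha chain, carried by cytotoxic T cells and by a subset of dendritic cells, and measured 145, 145 and 154 CPM in WT and 185, 193 and 166 CPM in heterozygous spleen. All 3 heterozygous libraries were above all 3 WT libraries, as was the case for 4.36% of all genes tested in spleen. The fold change was 0.29 on the log2 scale (SE 0.13), and the edgeR adjusted p was 1. Cd8b1, the beta chain that marks conventional cytotoxic T cells, did not show this separation, with 139, 96.0 and 112 CPM in WT and 116, 180 and 107 CPM in heterozygous spleen. Its log2 fold change was 0.21 (SE 0.25). Cd4, the coreceptor of helper and regulatory T cells, was the steadiest gene of the set, at 120, 103 and 117 CPM in WT and 123, 120 and 115 CPM in heterozygous spleen, with a log2 fold change of 0.07 (SE 0.13). The dendritic cell list had 5 of 9 genes above 0 in spleen, with a median log2 fold change of 0.0021, and its part in the Cd8a values was not tested.

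The receptor kinases followed the CD3 genes. Lck was at 317, 284 and 247 CPM in WT spleen and at 308, 398 and 265 CPM in heterozygous spleen. Zap70 was at 91.3, 76.4 and 70.0 CPM in WT and at 92.6, 106 and 74.1 CPM in heterozygous spleen. Both were again highest in heterozygous replicate 2, the genotypes overlapped, and both had a log2 fold change of 0.20, with SE 0.20 for Lck and 0.18 for Zap70.

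Cd28 and Foxp3 took another course across the libraries. Cd28, with 6122 exonic bases the longest gene of the set, was at 31.9, 47.6 and 61.7 CPM in WT and at 68.9, 35.7 and 64.3 CPM in heterozygous spleen. Its lowest values were in WT replicate 1 and heterozygous replicate 2, where the CD3 genes were highest. Its log2 fold change was 0.26 (SE 0.33). Foxp3 was at 10.3, 9.51 and 11.8 CPM in WT and at 15.9, 11.1 and 14.4 CPM in heterozygous spleen. The lowest heterozygous value lay below the highest WT value, and the log2 fold change of 0.39 (SE 0.19) was the largest of the 10 genes in spleen, with an edgeR adjusted p of 1. In the 4 libraries left when WT replicate 1 and heterozygous replicate 2 were set aside, all 10 genes still had fold changes above 0, with a median of 0.12 and a lowest edgeR adjusted p of 0.847.

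**Figure D1:**
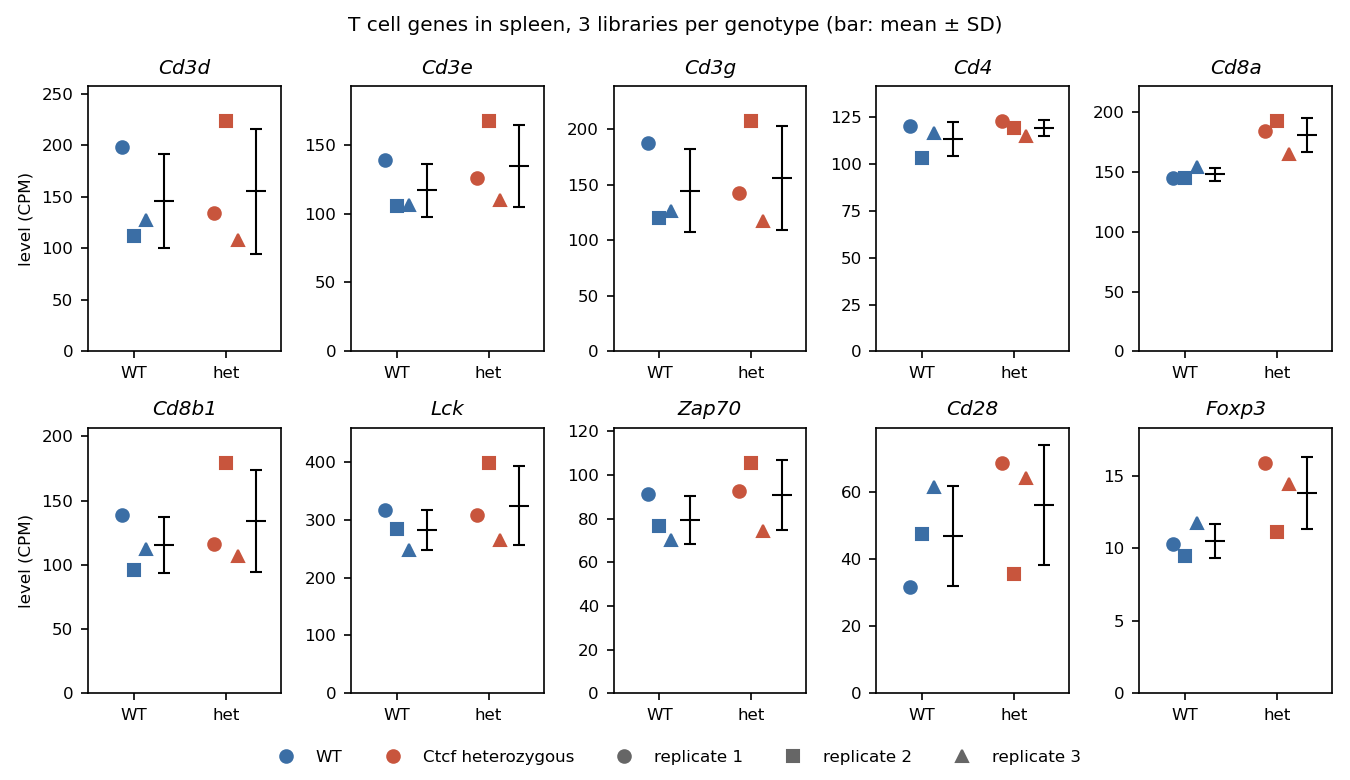
Level of each T cell gene in the 6 spleen libraries, in CPM on axes that start at 0. Points are libraries, coloured by genotype and shaped by replicate number, and the black bar is the group mean with its SD (n = 3). The genotypes are apart for Cd8a, from 145 to 154 CPM in WT and from 166 to 193 CPM in heterozygous spleen, and overlap for the other 9 genes.

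**Figure D2:**
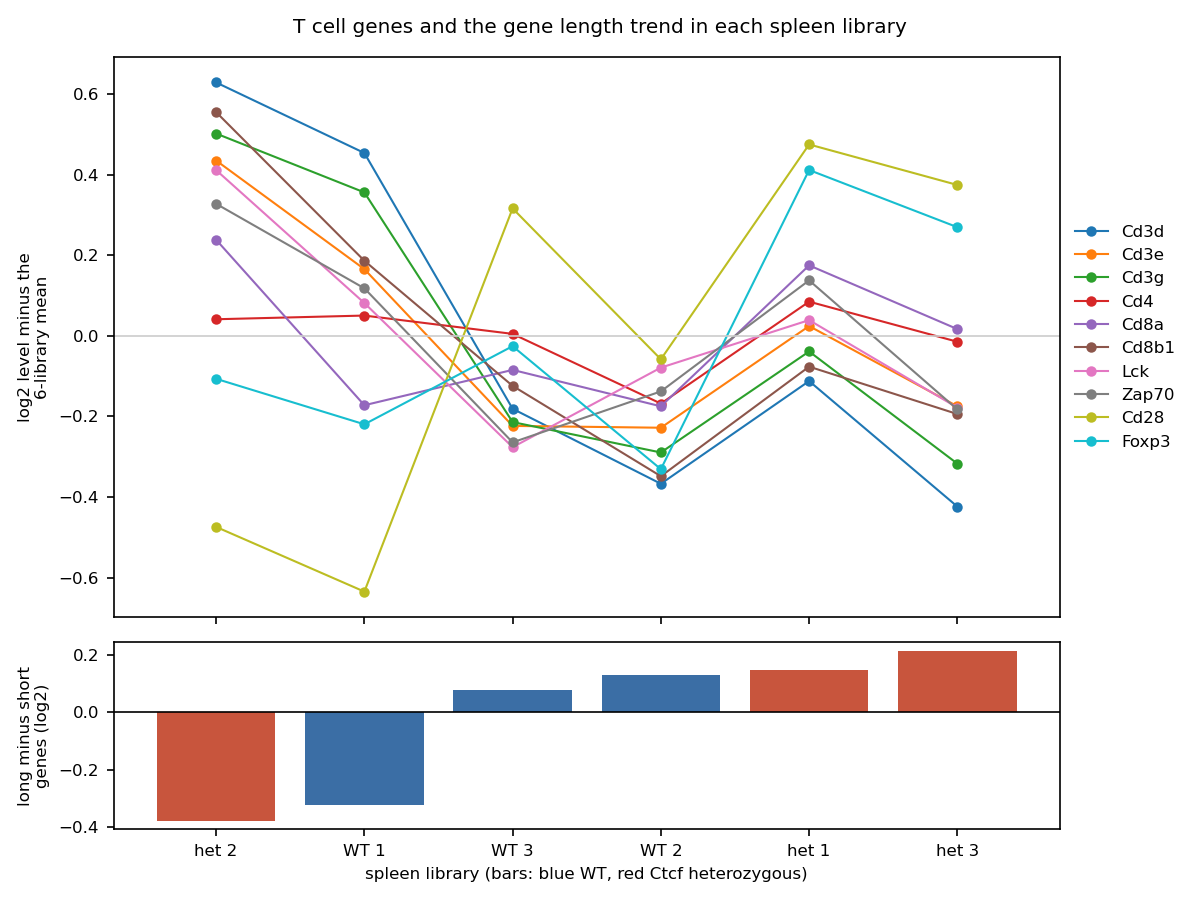
Upper panel: log2 level of each T cell gene minus its mean over the 6 spleen libraries. Lower panel: log2 difference between long and short genes in the same libraries, which are ordered by it. The CD3 genes peak at the left, with Cd3d at 0.63 in heterozygous replicate 2 and 0.45 in WT replicate 1, where Cd28 is at -0.47 and -0.64.

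Of the other genes of the T cell programme, 0 were called in spleen by edgeR. Of 5 receptor chain genes all 5 had fold changes above 0 (median 0.14), and 0 were called by edgeR. Trac, the constant part of the TCR alpha chain, was at 146 ± 28.0 CPM in WT and 160 ± 42.9 CPM in heterozygous spleen (SD, n = 3). Trbc1 and Trbc2 encode near-identical beta chain constant regions and can lose or exchange fragments. They were at 151 ± 39.1 and 256 ± 66.7 CPM in WT and at 164 ± 48.5 and 284 ± 91.0 CPM in heterozygous spleen. Of 20 signalling genes downstream of the receptor 14 were above 0 and 6 below, among them Lat, the adaptor phosphorylated by ZAP-70, at 188 ± 50.4 CPM against 213 ± 74.1 CPM. Of 17 surface and costimulation genes 15 were above 0, of 16 T cell transcription factors 12, and of 10 regulatory T cell genes 8. Tcf7, a transcription factor of naive and memory T cells, was at 289 ± 5.54 CPM in WT and 335 ± 15.7 CPM in heterozygous spleen. Ctla4, an inhibitory receptor abundant on regulatory T cells, was at 8.15 ± 1.25 and 11.6 ± 5.35 CPM. Among the 4 genes highest per kilobase in each of these lists, Ptpn6, Csk, Ccr7, Klf2 and Capg had log2 fold changes below 0. These ran from -0.19 for Capg to -0.01 for Ccr7. The rest of these genes were above 0, with Ctla4 the highest at 0.51. A further list, of genes of developing lymphocytes, had 3 genes tested in spleen. Cd1d1 (-0.41) and Dntt (-0.16) were below 0, and Rag1 (0.74) was above. In each of these lists 0 genes were called by edgeR, and at an unadjusted p under 0.05 there were 2 of the 17 surface genes, 1 of the 10 regulatory T cell genes and 0 in the others, against 3.52% of all genes tested in spleen.

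The lists of other blood cells in spleen had fitted fold changes on both sides of 0. All 9 B cell genes were below 0 (median log2 fold change -0.16), all 9 natural killer cell genes above 0 (median 0.28), all 9 neutrophil genes above 0 (median 0.99) and all 10 erythroid genes below 0 (median -0.39), with 0 called in each list by edgeR. Sums of the neutrophil list ran from 649 to 3491 CPM in WT and from 2386 to 5416 CPM in heterozygous spleen, and sums of the erythroid list from 15419 to 95528 CPM and from 22303 to 81126 CPM. Genes of the pancreas summed to 1543 CPM in heterozygous replicate 2, where the CD3 genes were highest, and to at most 209 CPM in the other spleen libraries. Marker genes of the liver summed to 32.8 to 42.1 CPM in the 3 WT spleens and to 0.0900 to 0.344 CPM in the 3 heterozygous ones. Marker genes of the kidney showed the opposite order, with 0.168 to 0.423 CPM in WT and 9.94 to 20.8 CPM in heterozygous spleen. Both traces thus separated the spleen libraries by genotype. What part these other cells and tissues had in the T cell values was not tested.

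Ratios within a library do not depend on its scaling, and 4 of them were compared between genotypes in spleen by a 2-sided exact permutation test, which cannot give a p below 0.1 with 3 against 3 libraries. Cd4 relative to Cd8a was 0.747, 0.643 and 0.681 in WT and 0.602, 0.558 and 0.627 in heterozygous spleen. All 3 heterozygous ratios were below all 3 WT ratios, a log2 difference of -0.21 with exact p = 0.1 and p = 0.4 after adjustment over the 4 ratios. Foxp3 relative to Cd4 was 0.0863, 0.0930 and 0.102 in WT and 0.131, 0.0939 and 0.127 in heterozygous spleen, a log2 difference of 0.31 with exact p = 0.2 and adjusted p = 0.4. Cd8a relative to Cd8b1 differed by 0.10 on the log2 scale (exact p = 0.5, adjusted p = 0.667). Lck relative to Cd3e was nearly constant, between 1.12 and 1.32 in all 6 libraries, with a difference of -0.0081 (exact p = 1).

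Outside the spleen each gene was at a small part of its spleen level, and the set did not fall evenly. Spleen was the highest tissue for all 10 genes, and no library of another tissue reached the lowest spleen library. In kidney the 10 genes sat close together, between 0.402% of the spleen mean for Cd8b1 and 1.65% for Cd4. In liver 9 of the 10 genes were between 0.203% and 0.790% of spleen, and Zap70 was at 12.2%. In brain Cd3d, Cd3e, Cd3g, Cd8a and Cd8b1 were at 0.0121% to 0.0471%, whereas Cd4 was at 11.9%, Zap70 at 2.94%, Foxp3 at 1.17%, Lck at 0.613% and Cd28 at 0.453%. In muscle Cd28 was at 8.30%, Foxp3 at 1.31%, Zap70 at 0.526%, Cd3e at 0.317%, and the other 6 genes were at 0.0531% to 0.131%.

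The gene with the highest percentage was the same in every library of a tissue. It was Cd4 in all 6 brain libraries and in all 6 kidney libraries, Zap70 in all 6 liver libraries and Cd28 in all 6 muscle libraries. Cd4 ran from 11.9 to 15.8 CPM over the brain libraries, where Cd3d gave 0 counts in all 3 WT libraries and 1 to 7 counts in the heterozygous ones. Zap70 ran from 5.08 to 14.6 CPM over the liver libraries, where Cd3e was between 0.302 and 1.34 CPM. Cd28 ran from 2.44 to 8.55 CPM over the muscle libraries, where Cd3d was between 0.0110 and 0.256 CPM. These 3 genes were therefore read at levels that the CD3 chains of the same libraries did not share. Of the receptor chains, Trbc2 and Trac in brain showed the same kind of gap. Trbc2 was at 4.73 to 9.32 CPM and Trac at 0.949 to 1.41 CPM, against 0.0202 to 0.0477 CPM for Trbc1. The receptor chain Cd247 was at 0.707 to 1.40 CPM in muscle. Trbc1 was there at 0.866 CPM in heterozygous replicate 3 and at most at 0.0690 CPM in the other libraries.

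Most neighbouring tissues below the spleen overlapped in level. For Cd3d the order was spleen, kidney, liver, muscle and brain, in which kidney and liver overlapped, as did muscle and brain. Cd3g had the same order and overlaps. In Cd4 (spleen, brain, kidney, liver, muscle) and in Zap70 (spleen, liver, brain, kidney, muscle) each tissue was apart from the next. For Foxp3 the 4 tissues other than spleen overlapped from one to the next and lay between 0.790% and 1.31% of spleen. Scaling all 30 libraries together by TMM multiplied the percentages by 2.22 to 2.26 in liver and by 2.29 to 2.31 in muscle. Spleen stayed the highest for all 10 genes, but the full order was kept for 3 of them, Cd4, Cd8a and Cd28, so the order of kidney and liver for the CD3 genes depends on the scaling.

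**Figure D3:**
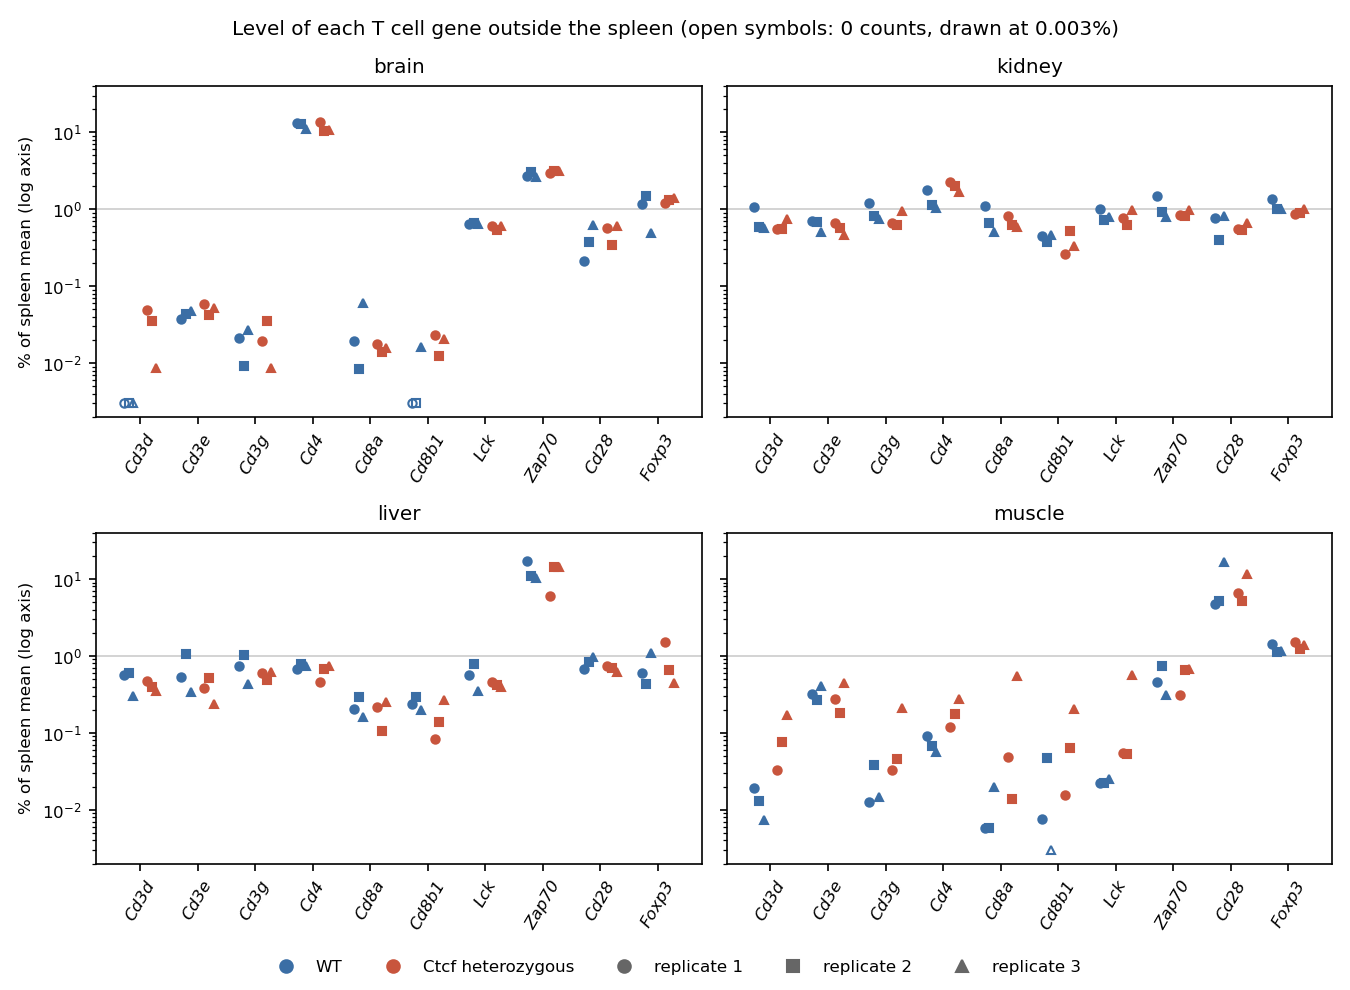
Level of each T cell gene in brain, kidney, liver and muscle as a percentage of its mean over the 6 spleen libraries, on a log axis. Each point is 1 library, coloured by genotype and shaped by replicate number, and open symbols are libraries with 0 counts, drawn at 0.003%. Kidney points lie near 1% for the whole set, whereas Cd4 in brain (11.9%), Zap70 in liver (12.2%) and Cd28 in muscle (8.30%) stand above the CD3 genes.

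In kidney 0 of the 10 genes were called by edgeR, DESeq2 or limma-voom, against 0.0211% of all genes tested by edgeR. The other 9 fold changes beside that of Cd4 were below 0, between -0.30 for Cd3g and -0.08 for Lck, while 50.1% of all genes tested were above 0. Cd4 went the other way, with 2.05, 1.33 and 1.22 CPM in WT and 2.65, 2.32 and 1.95 CPM in heterozygous kidney. The lowest heterozygous value was below the highest WT value, but in each of the 3 pairs of libraries with the same number the heterozygous one was higher. The fitted change was 0.59 on the log2 scale (SE 0.24, edgeR adjusted p = 0.736), and 0.62 with the replicate number as a block (adjusted p = 0.367). It was the 1 gene of the 10 with an unadjusted p under 0.05, as 6.44% of all genes tested had. All 10 genes of the macrophage list also had fold changes above 0, with a median of 0.38 and 0 called by edgeR, and their sum was 169 to 222 CPM in WT and 232 to 267 CPM in heterozygous kidney. The part of macrophages in the Cd4 value was not tested. For Foxp3 all 3 heterozygous kidneys lay below all 3 WT kidneys, at 0.106 to 0.121 CPM against 0.122 to 0.168 CPM. This held for 5.28% of all genes tested. The Foxp3 values rest on 9 to 12 counts in heterozygous and 11 to 16 counts in WT libraries, so the unscaled counts overlapped. WT replicate 1 was the highest library for 7 of the 10 genes, and without it 5 of the 10 fold changes were above 0. The B cell and neutrophil lists were also highest in that library. The B cell list summed to 18.3 CPM there against 9.64 to 13.9 CPM in the other 5, and the neutrophil list to 10.6 CPM against 1.42 to 3.23 CPM. The macrophage list (169 CPM) and the dendritic cell list (21.6 CPM) were lowest there. The natural killer cell and erythroid lists were highest in heterozygous replicate 3. Marker genes of muscle summed to 158 CPM in WT replicate 3 and 201 CPM in heterozygous replicate 3 of the kidney, and to 1.55 to 1.87 CPM in the other 4. Their part in the kidney values was not tested. Group means in WT and heterozygous kidney were 1.12 and 0.928 CPM for Cd3d, 0.782 and 0.713 CPM for Cd3e, 1.24 and 1.12 CPM for Cd8a and 0.536 and 0.467 CPM for Cd8b1. They were 0.909 and 0.751 CPM for Zap70 and 0.343 and 0.301 CPM for Cd28, and the genotypes overlapped in these 6 genes.

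In liver 0 of the 9 genes tested were called, against 0.0193% of all genes tested, and 0 had an unadjusted p under 0.05, against 4.56%. DESeq2 and limma-voom called 0. All 9 fold changes were below 0, from -0.75 (SE 0.48) for Cd3e to -0.16 (SE 0.34) for Zap70, with a median of -0.27 against -0.0109 over all genes, of which 47.6% were above 0. Cd3e was at 0.664, 1.34 and 0.426 CPM in WT and at 0.475, 0.646 and 0.302 CPM in heterozygous liver. Lck was at 1.70, 2.36 and 1.06 CPM in WT and at 1.38, 1.27 and 1.19 CPM in heterozygous liver. In both genes WT replicate 2 was the highest and the genotypes overlapped. The other 7 tested genes overlapped as well. Group means in WT and heterozygous liver were 0.739 and 0.615 CPM for Cd3d, 1.11 and 0.861 CPM for Cd3g, 0.851 and 0.723 CPM for Cd4, 0.363 and 0.315 CPM for Cd8a and 0.302 and 0.206 CPM for Cd8b1. They were 10.9 and 9.81 CPM for Zap70 and 0.432 and 0.355 CPM for Cd28. Foxp3 was the gene that did not pass the filter on low counts, with 16 counts in all in WT and 25 in heterozygous liver. The 9 B cell genes and the 10 macrophage genes were likewise all below 0, with medians of -0.43 and -0.27, and 0 were called. The liver WT library of replicate 3 also held brain genes, whose list summed to 50.3 CPM there and to 14.2 to 17.8 CPM in the other liver libraries. Without this library the median of the 9 T cell genes was -0.51, with a lowest edgeR adjusted p of 0.425. Without WT replicate 2 the median was -0.19, and 1 of the 9 genes was above 0. These were the lowest and highest medians with 1 liver library left out.

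In brain 5 of the 10 genes passed the filter on low counts, namely Cd4, Lck, Zap70, Cd28 and Foxp3. None of the 5 was called by edgeR, DESeq2 or limma-voom, against 0.0157% of all genes tested by edgeR, and 0 had an unadjusted p under 0.05, against 2.96%. Cd4 was at 15.3, 15.1 and 12.8 CPM in WT and at 15.8, 11.9 and 12.5 CPM in heterozygous brain, a log2 fold change of -0.10 (SE 0.13). Lck was at 1.94, 1.99 and 1.94 CPM in WT and at 1.81, 1.63 and 1.84 CPM in heterozygous brain. All 3 heterozygous values were below all 3 WT values, as for 4.1% of all genes tested, with a fitted change of -0.16 on the log2 scale (SE 0.13, edgeR adjusted p = 1). The 5 genes that did not pass, the CD3 and CD8 genes, had 0 to 7 counts per library.

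The widest differences were in muscle, where 1 library stood apart. Lck was at 0.0672, 0.0678 and 0.0767 CPM in WT muscle and at 0.168, 0.161 and 1.69 CPM in heterozygous muscle. The heterozygous library of replicate 3 had 158 Lck counts, and none of the other 5 had more than 17. Cd8a was at 0.00960 to 0.0329 CPM in WT and at 0.0789, 0.0230 and 0.898 CPM in heterozygous muscle, with 84 counts in replicate 3 and at most 8 elsewhere. Cd3g was at 0.321 CPM in that library and at most at 0.0691 CPM in the others. In 7 of the 10 genes (Cd3d, Cd3e, Cd3g, Cd4, Cd8a, Cd8b1 and Lck) it was the highest of the 6 muscle libraries.

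Of the 6 genes tested in muscle 0 were called by edgeR, against 0.0249% of all genes tested, and Lck and Cd4 had an unadjusted p under 0.05, as 6.45% of all genes tested did. Lck had a fitted difference of 3.23 on the log2 scale (SE 0.999, edgeR adjusted p = 0.532), and without heterozygous replicate 3 it was 1.22 (adjusted p = 0.817). DESeq2 called Lck (log2 fold change 3.25, adjusted p = 0.0235), as it did 0.635% of its genes in the higher direction. The edgeR fit of all 30 libraries called Lck (3.26, adjusted p = 0.0144), Cd8a (4.26, adjusted p = 0.0315) and Cd4 (1.41, adjusted p = 0.0327), beside 0.35% of all genes in the higher direction. Cd4 was at 0.106, 0.0775 and 0.0657 CPM in WT and at 0.138, 0.207 and 0.321 CPM in heterozygous muscle. All 3 heterozygous values were above all 3 WT values for Cd4 and for Lck, as for 5.91% of all genes tested, and Cd4 had a fold change of 1.40 (SE 0.46, edgeR adjusted p = 0.587). For Cd4 the value without heterozygous replicate 3 was 1.04 (adjusted p = 0.969). The Cd4 levels rest on 6 to 30 counts per library. The other 4 genes tested overlapped between genotypes, with group means in WT and heterozygous muscle of 0.415 and 0.381 CPM for Cd3e, 0.429 and 0.465 CPM for Zap70, 4.56 and 4.03 CPM for Cd28 and 0.150 and 0.169 CPM for Foxp3. Marker genes of the kidney summed to 8.58 to 64.0 CPM in WT muscle and to 0.0986 to 5.08 CPM in heterozygous muscle, and their part in these values was not tested.

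Genes of developing lymphocytes stood out in the same library. Rag1, a subunit of the recombinase that assembles antigen receptor genes, had 25 counts in heterozygous replicate 3 and 0 in the other 5 muscle libraries. Dntt, the polymerase that adds bases at the joints of these genes, had 49 counts against at most 5. Of the other genes of this list, Rag2 had 6 counts against 0, Ptcra, the pre-TCR alpha chain, had 4 counts there and 4 in WT replicate 3, and Cd1d1 was at 2.63 CPM against 0.679 to 3.20 CPM. Trbc1 was at 0.866 CPM against at most 0.0690, Trbc2 at 0.908 CPM against at most 0.150, and Trac at 0.289 CPM against at most 0.197. The 9 B cell genes summed to 2.35 CPM in that library and to 1.19 to 2.29 CPM in the other 5. In that library 7 genes had at least 0.2 CPM and at least 8 times the highest of the other muscle libraries, a rule set after the values were seen. They were Lck, Cd8a, Trbc1, Dntt, Myb, Rag1 and Ighg3. The same rule gave 9 genes in WT replicate 1 and 10 in WT replicate 2 of muscle. Over the other libraries outside the spleen it gave 0 to 257 genes. In the other 23 libraries outside the spleen 0 of the genes were in the T cell lists. The rule was set on heterozygous replicate 3 of muscle, so this 0 is not a test of how that library differs. Of the lists of other cells, all 9 macrophage genes tested (median log2 fold change 0.74) and all 5 adipocyte genes (median 2.05) were above 0 in muscle, with 0 called by edgeR. The macrophage list summed to 27.3 to 44.5 CPM in WT and 39.3 to 74.6 CPM in heterozygous muscle, and the adipocyte list to 22.4 to 67.6 and 120 to 319 CPM. Their part in the Cd4 value was not tested.

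**Figure D4:**
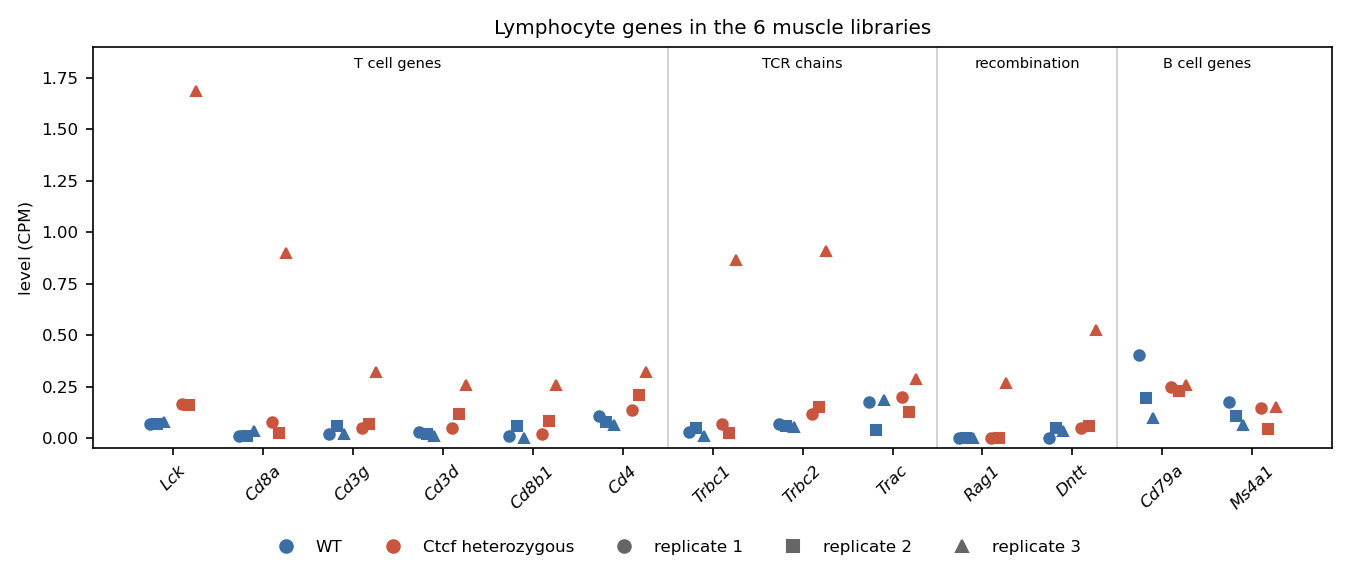
Level in CPM of 6 T cell genes, 3 TCR chain genes, 2 genes of receptor gene recombination and 2 B cell genes in the 6 muscle libraries. Points are libraries, coloured by genotype and shaped by replicate number. The heterozygous library of replicate 3 lies at 1.69 CPM for Lck and 0.898 CPM for Cd8a, apart from the other 5, and among them for the B cell genes.

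**Figure D5:**
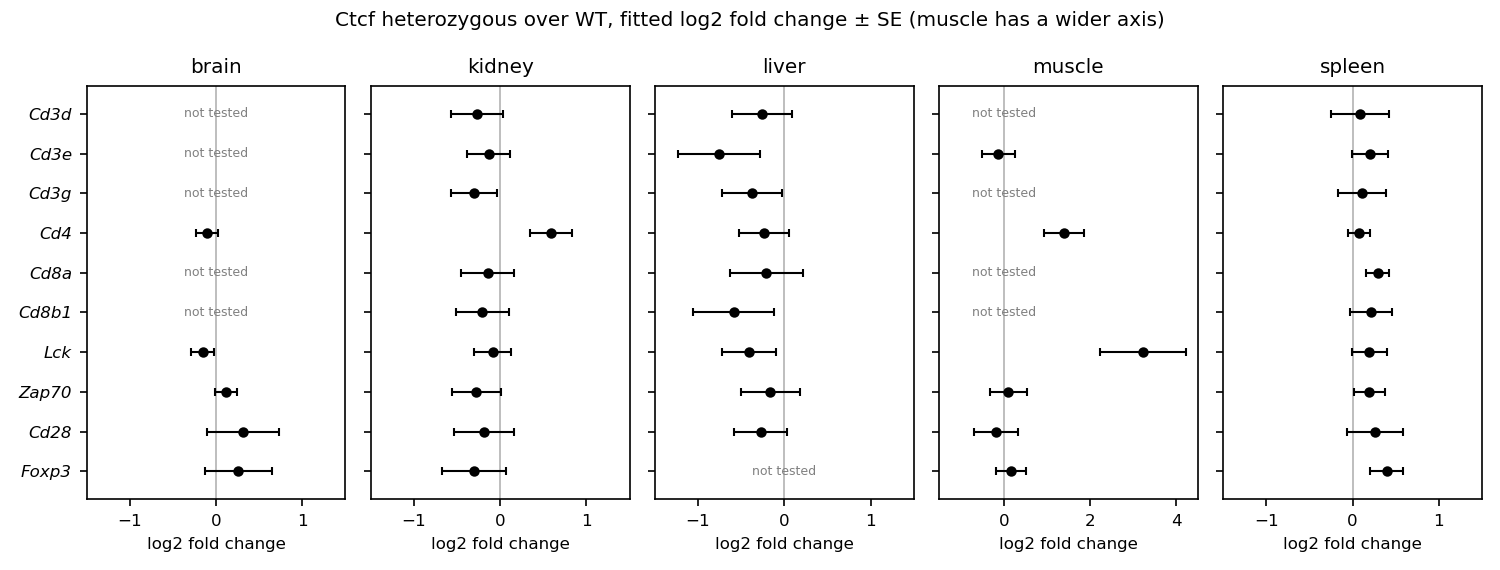
Fitted log2 fold change of heterozygous over WT (points) with its SE (bars) for each T cell gene and tissue. Genes that did not pass the filter on low counts are marked as not tested, and the muscle axis is wider. All 10 spleen values are above 0 and all 9 liver values below 0, and Lck in muscle (3.23) has the widest bar.

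The other T cell lists were read in the same way outside the spleen, and edgeR called 0 of their genes in brain, kidney, liver and muscle. At an unadjusted p under 0.05 each list held 0 to 2 genes per tissue, against 2.96% of all genes tested in brain, 6.44% in kidney, 4.56% in liver and 6.45% in muscle. In liver, fold changes were below 0 for all 4 receptor chain genes tested and 15 of 19 signalling genes. The same held for 11 of 14 surface and costimulation genes, 13 of 15 transcription factors and 6 of 8 regulatory T cell genes. The 2 tested genes of developing lymphocytes were above 0 there, with a median of 0.14. Trac was at 1.33, 1.51 and 0.704 CPM in WT and at 0.673, 0.593 and 0.854 CPM in heterozygous liver, where the highest heterozygous value exceeded the lowest WT value. In kidney the receptor chains had 4 of 5 genes below 0, but signalling genes had 12 of 20 above 0 and transcription factors 8 of 16. In muscle 2 of 4 receptor chain genes and 10 of 15 signalling genes were above 0, and in brain 3 of 4 and 8 of 17.

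Whether the genotype effect differed between tissues was tested in a fit of all 30 libraries, which took libraries of different tissues as independent. By edgeR 0 of the 10 genes were called for a difference between tissues, against 0.758% of 24262 genes. Cd4 had the lowest adjusted p, 0.152, followed by Lck at 0.163, and 4 of the 10 genes had an unadjusted p under 0.05, against 6.66% of all genes. Without heterozygous replicate 3 of muscle the lowest adjusted p was 0.376, again for Cd4, and 3 genes had an unadjusted p under 0.05, against 6.35% of all genes. With muscle left out altogether the lowest adjusted p was 0.764 and 1 gene had an unadjusted p under 0.05, against 5.8% of all genes. For an effect shared by the 5 tissues 0 of the 10 genes were called, against 0.194% of all genes, and 0 had an unadjusted p under 0.05, against 5.91% of all genes. Cd4 came first with a shared log2 fold change of 0.22 (SE 0.12, edgeR adjusted p = 0.989).

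Across the 30 libraries, after each of the 10 groups was centred on its own mean, Lck followed the mean of the set most closely (r = 0.94), followed by Cd3g and Cd8a (both 0.88) and Cd3d (0.79). Zap70 (0.43) and Cd28 (0.30) followed it less, and Foxp3 did not (r = -0.15). With the muscle library of heterozygous replicate 3 left out, r was 0.89 for Lck, 0.85 for Cd3g, 0.78 for Cd3d and 0.76 for Cd8a. Zap70 stayed at 0.43, and Cd28 fell to 0.13 and Foxp3 to -0.22. Outside the lists, the genes most alike to this mean among 14740 genes with at least 0.5 CPM in spleen were Rasal3 (r = 0.80), A630023P12Rik (0.79), Galnt6 (0.78), Ltb (0.74) and Myb (0.74). Without the muscle library of heterozygous replicate 3 these values were 0.62, 0.67, 0.65, 0.62 and 0.53. They describe libraries that share depth and tissue composition.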

How the data were processed

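The deposited counts of fragments per gene, in 5 tables, came from featureCounts 1.5.0-p3 run by the authors with Ensembl release 86 of GRCm38, per the file headers. Exons were counted without regard to strand. FastQC, STAR and DESeq2 are named without versions in the submitters' processing notes. Libraries were grouped by their titles. Each tissue was fitted alone with edgeR 4.0.16 in R 4.3.3: filterByExpr, TMM, quasi-likelihood test of genotype, Benjamini-Hochberg adjustment over all genes tested, called at an adjusted p under 0.05. All 30 libraries were fitted for the interaction and the shared effect. Levels are CPM computed from the deposited counts. The fit of each tissue alone was tested on simulated data, and the fits of all 30 libraries were not. No pair of replicates agreed within sampling noise, and 0 columns were left unused.

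Alternatives were DESeq2 1.42.0, its size factors or total counts in edgeR, limma-voom (limma 3.58.1), 2 other filters on low counts, the replicate number as a block, a fit of all 30 libraries, and each library or tissue left out. Added after seeing the data were the 4 spleen libraries without a length trend, removal of that trend, and the fits across tissues without muscle heterozygous replicate 3. One item of the planned lists and ratios is not reported here, and the ratios were adjusted over the other 4. The members and lists were chosen with earlier results of these data known. The text names all 10 members in every tissue, of each other T cell list some of the 4 genes highest per kilobase in spleen, the 5 most alike genes, and list sums of other cells. Tcf7, Lat, Trac, Trbc1, Trbc2, Ctla4, Ptpn6, Csk, Ccr7, Klf2 and Capg fall under this rule, as do Cd1d1, Dntt and Rag1 in spleen. The genes named in muscle and brain beside the members were chosen after their values were seen. Deviations from the group means correlated between same-numbered WT and heterozygous libraries at 0.207 to 0.537 in brain and at 0.190 to 0.212 in kidney, so these numbers were taken to pair libraries there. Libraries with different numbers correlated at -0.441 to 0.216 in brain and at -0.167 to -0.039 in kidney. The ranges thus overlapped in brain, as they did in liver, muscle and spleen. The titles give a number and no pairing, and the main tests did not use it.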

Additional observations from a re-analysis of the deposited data

Results flagged for a closer look

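Lck had groups that did not overlap in opposite directions in a pair of tissues. In muscle all 3 heterozygous libraries were above all 3 WT libraries, with heterozygous means of 0.672 CPM against 0.0705 CPM in WT, and in brain all 3 were below, with means of 1.76 CPM against 1.96 CPM. Of all genes tested, 5.91% were above in this way in muscle and 4.1% below in brain. This pairwise difference was not tested. The test across all 5 tissues gave Lck an edgeR adjusted p of 0.163, and 0.658 without heterozygous replicate 3 of muscle, which held 158 of the 189 heterozygous counts.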

How the results depend on the processing

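The count of members called was 0 in 92 of 94 alternatives over the 5 tissues, the interaction and the shared effect. The others were muscle with DESeq2 (1, Lck) and muscle in the fit of all 30 libraries (3). With the replicate number as a block 0 members were called in each tissue, both in brain and kidney, where the numbers were taken to pair libraries, and elsewhere. Of 574 fold changes under alternatives, 26 reversed, 25 of them when 1 library was left out and 1 with limma-voom, Cd28 in muscle at 0.022. With each library left out in turn, log2 fold changes with a reversal ran from -0.025 to 0.58 for Foxp3 in brain. In kidney they ran from -0.43 to 0.089 for Cd3d, -0.36 to 0.23 for Cd8a, -0.26 to 0.062 for Lck, -0.45 to 0.042 for Zap70 and -0.45 to 0.0023 for Cd28. In liver they ran from -0.43 to 0.087 for Cd8a and -0.35 to 0.16 for Zap70, and in muscle from -0.51 to 0.13 for Cd3e, -0.14 to 0.49 for Zap70 and -0.57 to 0.65 for Cd28. In spleen they ran from -0.28 to 0.37 for Cd3d, -0.16 to 0.34 for Cd3g, -0.0039 to 0.12 for Cd4 and -0.058 to 0.37 for Cd8b1. The log2 ratio of Cd8a to Cd8b1 ran from -0.058 to 0.28 and that of Lck to Cd3e from -0.052 to 0.064. The libraries whose removal reversed most members were WT replicate 1 in kidney (Cd3d, Cd8a, Lck and Zap70), heterozygous replicate 2 (Cd3d, Cd3g and Cd8b1) and WT replicate 2 (Cd3d, Cd3g and Cd4) in spleen, and heterozygous replicate 2 and WT replicate 3 (Cd3e, Zap70 and Cd28) in muscle. The cause was not tested. Depth limits the CD3 and CD8 genes in brain, at 0 to 7 counts a library.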
